A study of Arabidopsis thaliana with 7 samples.

Results

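The 10 genes described here encode light-harvesting chlorophyll a/b-binding (LHCB) proteins of Arabidopsis thaliana, namely LHCB1.1 to LHCB1.5, LHCB2.1 to LHCB2.3, LHCB3 and LHCB4.1. They were chosen by their locus identifiers, not by any measured value, and were 10 of 27444 nuclear protein-coding genes. LHCB proteins bind chlorophyll and pass light energy to photosystem II. LHCB1, LHCB2 and LHCB3 form the trimers of the major antenna, LHCII, whereas LHCB4 is the minor antenna protein CP29. The genes are known as highly expressed in green tissue and have no role in the cell cycle, but their transcript levels were not measured in these libraries.

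E2FA, E2FB and E2FC are the canonical E2F transcription factors of the plant, which bind DNA with a DP partner and control genes of DNA replication and the cell cycle. RETINOBLASTOMA-RELATED (RBR) binds E2F proteins and can turn them into repressors. The peaks come from chromatin immunoprecipitation followed by sequencing (ChIP-seq), and the question here was where, and how strongly, these 4 proteins were recovered at genes that lie outside the cell cycle.

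Each library was made from whole seedlings of the Col0 background, given as 12 days old in the sample labels (the methods state another age). The plants carried pE2FA-E2FA-GFP, pE2FB-E2FB-GFP, pE2FC-E2FC-GFP or pRBR-RBR-GFP, each a GFP fusion driven by the gene's own promoter, and no treatment is given. Chromatin of all plants was precipitated with the same GFP antibody. There were 2 libraries for E2FA, E2FB and RBR, called replicate 1 and replicate 2, and for E2FC there was 1, in replicate 1. Only replicate 2 is labelled as a biological replicate. In all, 7 peak lists were read, none of them from input DNA or from plants without GFP. Whole seedlings pool all cell types, and more cells with a protein on a gene cannot be told apart from more protein per cell.

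The lists held between 24883 and 28742 peaks on the 5 nuclear chromosomes. The median peak had a fold enrichment over local background of 1.62 to 1.81 in the 4 lists of replicate 1 and of 2.65 to 3.06 in the 3 lists of replicate 2. Replicate 1 values are averages over broad peaks and replicate 2 values refer to a summit, so replicate and peak format cannot be told apart. A peak was therefore compared only within its own list, by its percentile, which is the share of peaks in that list with a lower fold enrichment. There was 1 library per protein and replicate, so no test was made, and the counts of LHCB genes with a peak are given beside the share of all protein-coding genes.

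RBR had a peak at the most LHCB genes in each replicate. Over all protein-coding genes RBR also had the highest share in replicate 2, whereas in replicate 1 its share was just below that of E2FA. A peak within 1000 bp of the transcription start site (TSS) was present at all 10 LHCB genes in RBR replicate 1, against 74.8% of protein-coding genes, and at 9 in RBR replicate 2, against 77.4%. E2FA had such a peak at 8 LHCB genes in replicate 1 and 7 in replicate 2, against 75.7% and 67.1% of protein-coding genes. E2FB had one at 6 and 7, against 71.9% and 73.2%. The E2FA and E2FB shares, and that of RBR replicate 2, were thus near those of all genes. E2FC had a peak near 4 LHCB genes, against 57% of protein-coding genes. A peak was present in both E2FA lists at 6 LHCB genes, against 58.6% of protein-coding genes, in both E2FB lists at 5 (63.9%) and in both RBR lists at 9 (69.4%).

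The difference between proteins was wider for peaks that covered the TSS itself. RBR covered the TSS of 9 LHCB genes in replicate 1 and of 9 in replicate 2, against 54.5% and 63.1% of protein-coding genes. The same 9 were covered in both libraries, against 51.2% of protein-coding genes, and LHCB1.2 was the exception. E2FA covered the TSS of 6 and 5 LHCB genes in its replicates 1 and 2, against 49.5% and 50.1%. E2FB covered 3 and 7, against 48.8% and 58.1%. E2FC covered only the TSS of LHCB3, that is 1 of 10, against 26% of protein-coding genes. In replicate 2, all 3 proteins covered the TSS of 5 LHCB genes, LHCB1.1, LHCB1.4, LHCB1.5, LHCB2.1 and LHCB4.1, against 47.8% of protein-coding genes.

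LHCB2.1 and LHCB3 were the only LHCB genes with a peak within 1000 bp of the TSS in all 7 libraries, 2 of 10 against 40.8% of protein-coding genes. No LHCB gene lacked such a peak in every library, against 10.1% of protein-coding genes. LHCB1.1, LHCB1.4, LHCB1.5 and LHCB2.3 had one in 6 libraries, LHCB2.2 in 5, LHCB4.1 in 4, LHCB1.3 in 3 and LHCB1.2 in 1.

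**Figure D1:**
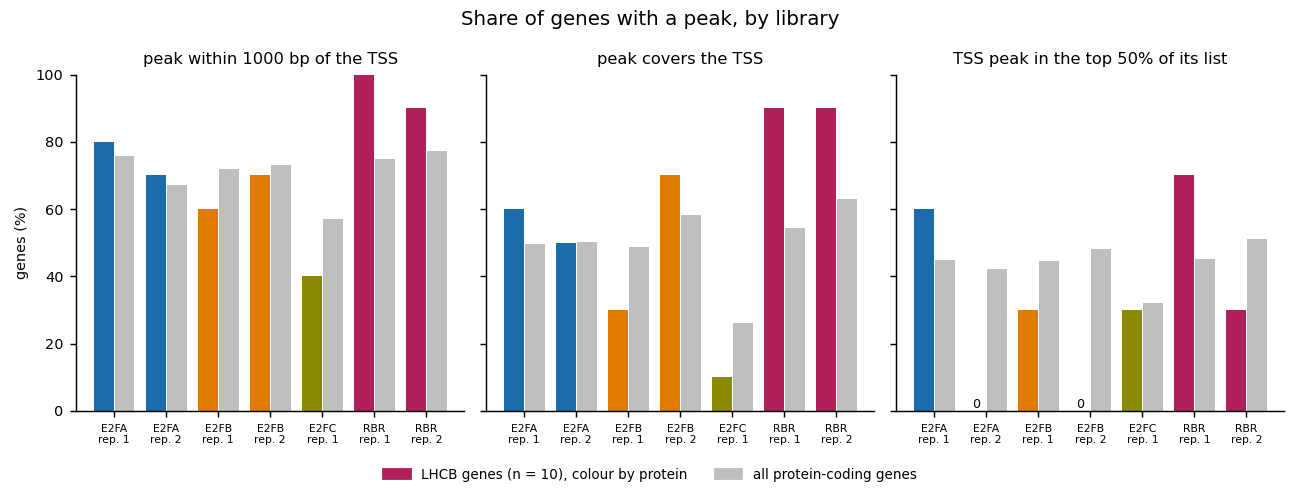
Share of genes (%) with a peak within 1000 bp of the TSS, with a peak over the TSS, and with a TSS peak in the top 50% of its list by fold enrichment, for the 10 LHCB genes (coloured bars, 1 colour per protein) and all 27444 protein-coding genes (grey bars) in each library. Both RBR libraries cover the TSS of 9 of 10 LHCB genes, and no LHCB gene has a TSS peak in the top 50% in E2FA or E2FB replicate 2.

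The peaks near the TSS of LHCB genes mostly ranked low in replicate 2. The median percentile of the highest peak within 1000 bp of the TSS was 30.8 over 7 LHCB genes in E2FA replicate 2, against 62.8 over 18406 protein-coding genes with a peak. It was 20.3 over 7 LHCB genes in E2FB replicate 2, against 65.0 over 20083, and 46.8 over 9 LHCB genes in RBR replicate 2, against 65.0 over 21231. By this measure the LHCB genes lay near all genes or above them in replicate 1, except for E2FB. The median was 66.6 over 8 LHCB genes in the E2FA list, against 59.1 over all protein-coding genes with a peak, and 45.2 over 6 LHCB genes in the E2FB list, against 61.5. It was 68.1 over 4 LHCB genes in the E2FC list, against 56.1, and 64.5 over 10 LHCB genes in the RBR list, against 59.7. By the highest peak, the lower rank at LHCB genes was therefore seen in both E2FB libraries, whereas in E2FA and RBR it was seen in replicate 2 only. By the peak nearest the TSS, the order in E2FA replicate 1 was reversed, with a median of 50.5 against 54.8. RBR replicate 1 stayed above all genes by that measure, at 62.2 against 55.9, and E2FC at 68.1 against 52.2.

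No LHCB gene had a TSS peak in the top 50% of the E2FA replicate 2 or E2FB replicate 2 list, against 42.3% and 48.1% of protein-coding genes. RBR replicate 2 placed 3 LHCB genes in the top 50%, against 51.1%, and these were LHCB1.4, LHCB1.5 and LHCB4.1. In replicate 1 the top 50% held 6 LHCB genes for E2FA, against 45%, and 7 for RBR, against 45.1%. It held 3 for E2FB, against 44.5%, and 3 for E2FC, against 32%.

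The study's limits for a target gene are more than 3-fold enrichment at q below 0.01. Within 1000 bp of the TSS, LHCB genes passed them in 1 list only. The 3′ peak of LHCB4.1 lay outside this window in E2FA and E2FB replicate 2 and passed there, with a fold enrichment of 4.25 and 5.78. In RBR replicate 2 the limits were passed near the TSS of 4 LHCB genes, LHCB1.4, LHCB1.5, LHCB3 and LHCB4.1, against 52.6% of protein-coding genes. No LHCB gene passed them near the TSS in E2FA replicate 2 or E2FB replicate 2, against 32.8% and 49.2%. None passed in replicate 1 either, where few genes did, namely 1.73% of protein-coding genes in the E2FA list, 0.288% in the E2FB list, 0.266% in the E2FC list and 0.0182% in the RBR list.

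**Figure D2:**
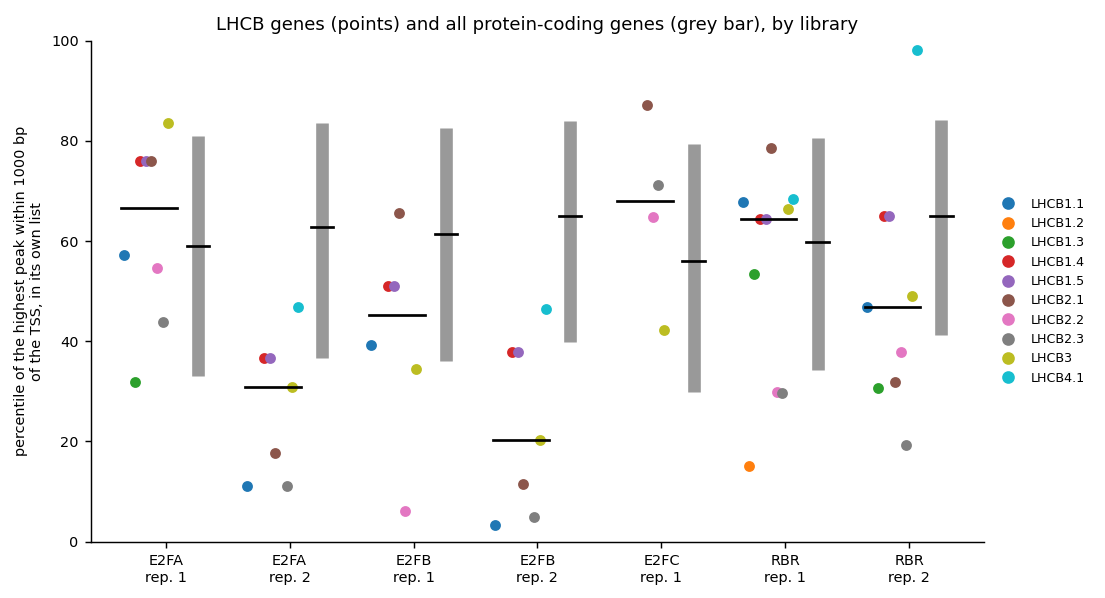
Percentile of the highest peak within 1000 bp of the TSS in its own list, by library. Points are the LHCB genes that have such a peak with their median as a line, and grey bars give the interquartile range and median of all protein-coding genes with a peak. In E2FA and E2FB replicate 2 every LHCB point lies under 50.

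LHCB1.1, LHCB1.2 and LHCB1.3 (AT1G29920, AT1G29910 and AT1G29930, annotated as CAB2, CAB3 and CAB1) lie next to each other on chromosome 1 and encode nearly the same LHCII protein. Their coding sequences of 804 bases shared between 95.6% and 96.4% of positions, whereas the 250 bases before their TSSs aligned with between 46.2% and 51.3% identity, close to the median of 48.8% over the 45 pairs of LHCB promoters. These 3 promoters are shown because the peaks at these copies differed so much. They were read from the TAIR10.1 assembly, on the strand of the gene and ending at the base before the TSS, and capitals mark a CCA1 site, which is described further on.
LHCB1.1, chr1:10475970-10476219, minus strand: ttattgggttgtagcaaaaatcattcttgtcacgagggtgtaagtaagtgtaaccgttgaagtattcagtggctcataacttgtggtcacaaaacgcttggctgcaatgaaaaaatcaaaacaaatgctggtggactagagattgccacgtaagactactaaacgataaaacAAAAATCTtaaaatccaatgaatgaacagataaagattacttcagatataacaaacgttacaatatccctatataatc
LHCB1.2, chr1:10473503-10473752, minus strand: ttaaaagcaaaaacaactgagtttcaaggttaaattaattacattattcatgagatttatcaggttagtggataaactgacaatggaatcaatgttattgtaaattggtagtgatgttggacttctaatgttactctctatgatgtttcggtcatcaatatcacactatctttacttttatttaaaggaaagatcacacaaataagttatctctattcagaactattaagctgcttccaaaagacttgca
LHCB1.3, chr1:10477635-10477884, plus strand: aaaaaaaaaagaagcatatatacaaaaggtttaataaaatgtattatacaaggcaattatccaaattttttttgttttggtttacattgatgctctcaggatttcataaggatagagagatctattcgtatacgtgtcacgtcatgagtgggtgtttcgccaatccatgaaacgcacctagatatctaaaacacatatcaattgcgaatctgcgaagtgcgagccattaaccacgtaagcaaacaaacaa

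LHCB1.1 had a promoter peak of similar place in 6 libraries and none in E2FC. Its fold enrichment was 1.88 in E2FA, 1.56 in E2FB and 1.88 in RBR in replicate 1, and 2.00 in E2FA, 1.86 in E2FB and 2.95 in RBR in replicate 2. The percentiles were 57.3, 39.4 and 67.7 in replicate 1 and 11.1, 3.26 and 46.8 in replicate 2, for E2FA, E2FB and RBR in this order. RBR was thus the highest of the 3 proteins in both replicates. The summits of E2FA, E2FB and RBR in replicate 2 lay 114, 197 and 21 bp before the TSS, in the printed promoter, and the summit nearest the TSS was that of RBR.

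LHCB1.2 stood at the other end. Its only peak in the 7 libraries was found in RBR replicate 1, from 17 to 169 bp after the TSS in the 5′ UTR, with a fold enrichment of 1.48 and a percentile of 15.03. Stretches of 76 bp, the length of the replicate 1 reads, that occur elsewhere in the genome made up 3.57% of LHCB1.2, 10.2% of LHCB1.1 and 7.36% of LHCB1.3, and 0% of the 500 bp before each TSS. For stretches of 36 bp the shares within the genes were 20.5%, 27.2% and 26.9%, in the same order. Only exact repeats were counted. Whether repeated or nearly identical stretches changed the number of peaks was not tested.

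LHCB1.3 had TSS peaks in E2FA replicate 1 (fold enrichment 1.64, percentile 31.9), RBR replicate 1 (1.75, percentile 53.4) and RBR replicate 2 (2.44, percentile 30.8). RBR replicate 2 had its summit 56 bp after the TSS, in the 5′ UTR. Separate weak peaks lay over the 3′ end of the gene in E2FA replicate 1, E2FB replicate 1, E2FA replicate 2 and RBR replicate 2, with percentiles of 30.2, 15.6, 7.96 and 5.71. The broad peak of RBR replicate 1 ran over the whole gene. The 3′ UTR of LHCB1.3 overlaps that of NRPA2 (AT1G29940), which encodes a subunit of RNA polymerase I, so these 3′ peaks cannot be given to 1 of the 2 genes.

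LHCB1.4 and LHCB1.5 (AT2G34430 and AT2G34420) encode further LHCII proteins and face away from each other on chromosome 2, with 1038 bp between their TSSs. Peaks in this gap count for both, so their highest percentiles were the same in each library. The peak over the TSS of LHCB1.4 had a percentile of 18.6 in E2FA replicate 1, 59.8 in RBR replicate 1, 36.6 in E2FA replicate 2, 34.5 in E2FB replicate 2 and 65.0 in RBR replicate 2. The peak nearest the TSS of LHCB1.5 had a percentile of 76.01 in E2FA, 51.0 in E2FB and 64.5 in RBR in replicate 1, and of 0.560 in E2FA, 38.0 in E2FB and 53.0 in RBR in replicate 2. For E2FA and RBR the order of the 2 genes thus differed between replicates, with the higher percentile at LHCB1.5 in replicate 1 and at LHCB1.4 in replicate 2. E2FC had no peak at either gene. A long non-coding RNA on the other strand, AT2G08665, overlaps LHCB1.5 and has its 3′ end at the TSS of LHCB1.5. Signal there cannot be given to 1 of the 2 genes.

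LHCB2.1, LHCB2.2 and LHCB2.3 (AT2G05100, AT2G05070 and AT3G27690) encode LHCB2, an LHCII subunit whose phosphorylation helps to balance light energy between the photosystems. At LHCB2.1 all 4 replicate 1 libraries had a broad peak before the gene and another that ran from the gene past its 3′ end. The peak before the gene had a fold enrichment of 2.13 in E2FA, 1.73 in E2FB, 2.04 in E2FC and 2.01 in RBR, with percentiles of 75.98, 65.6, 87.2 and 78.7. The 3′ peak had midpoints between 1592 and 1755 bp after the TSS and percentiles of 67.5, 72.4, 44.9 and 70.1 for these proteins in the same order. LHCB2.1 in E2FC was the highest percentile of any LHCB gene in that library, although the peak ended 229 bp before the TSS. In replicate 2 only peaks at the promoter were listed, with percentiles of 17.6 in E2FA, 11.5 in E2FB and 31.9 in RBR, and no 3′ peak was listed for any of them.

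LHCB2.2, whose coding sequence is 96.6% identical to that of LHCB2.1, had no peak in E2FA or E2FB replicate 2. The RBR replicate 2 peak had its summit 74 bp before the TSS, a fold enrichment of 2.66 and a percentile of 37.8. In replicate 1 the highest peaks had midpoints 1002 bp before the TSS in E2FA, 593 in E2FB, 992 in E2FC and 872 in RBR, with percentiles of 54.6, 6.07, 64.8 and 29.8. The E2FA and E2FC peaks of this gene therefore lay upstream, and neither covered the TSS.

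LHCB2.3 was covered at the TSS by RBR in both replicates (percentiles 29.7 and 19.4) and by E2FB in replicate 2 (4.88). The RBR replicate 2 peak ran from 202 bp before the TSS to 1448 bp after it. Its summit lay 882 bp after the TSS, in the coding sequence, so 19.4 is not a value of the TSS alone. The 3′ part of LHCB2.3 overlaps AT3G27700, and signal there cannot be given to 1 of the 2 genes. The E2FA replicate 2 peak ran from 14 to 189 bp after the TSS and had a percentile of 11.1. The E2FA replicate 1 and E2FC replicate 1 peaks counted for it lay 930 and 982 bp or more upstream, and their midpoints were closer to the TSS of AT3G27680 on the other side. The annotated start of LHCB2.3 is also the first base of its start codon, so distances from its TSS are less certain than those of the other genes.

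LHCB3 (AT5G54270) encodes the LHCII subunit found in trimers close to the photosystem core. It was the only LHCB gene with a peak at the TSS in all 4 replicate 1 libraries. Its fold enrichment was 2.27 in E2FA, 1.54 in E2FB, 1.60 in E2FC and 1.87 in RBR, with percentiles of 83.5, 34.5, 42.2 and 66.4. E2FA at LHCB3 was the highest percentile of any LHCB gene in E2FA replicate 1. In replicate 2 the fold enrichment was 2.3 in E2FA, 2.25 in E2FB and 3.03 in RBR, with percentiles of 30.8, 20.3 and 49.0. E2FA, first of the proteins by percentile in replicate 1, was thus below RBR in replicate 2. The summits lay 168, 76 and 159 bp after the TSS for E2FA, E2FB and RBR, all in the 5′ UTR, and the E2FA peak started 25 bp after the TSS. The 112 bases between LHCB3 and its upstream neighbour are given because all 4 replicate 1 peaks at the TSS ran across them, with TATA boxes in capitals (TTTATA is the box on the other strand).
LHCB3, chr5:22038053-22038164, plus strand: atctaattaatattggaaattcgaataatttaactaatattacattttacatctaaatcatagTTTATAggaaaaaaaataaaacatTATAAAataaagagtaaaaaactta

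LHCB4.1 (AT5G01530) had the strongest replicate 2 peaks near any of the 10 genes, and their summits lay past its 3′ end. In replicate 2 the summits were 1832 bp after the TSS in E2FA, 1812 in E2FB and 1825 in RBR, whereas the gene is 1683 bp long. Fold enrichment was 4.25 in E2FA, 5.78 in E2FB and 6.78 in RBR, with percentiles of 87.3, 93.4 and 98.1. In replicate 1 peaks centred 1921 bp after the TSS in E2FA, 1941 in E2FB and 1929 in E2FC had a fold enrichment of 2.17, 2.03 and 1.55 and percentiles of 78.1, 89.3 and 32.2. RBR replicate 1 had 1 broad peak from 91 bp before the TSS to 2509 bp after it, with a percentile of 68.4.

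A peak thus covered the 3′ end of LHCB4.1 in all 7 libraries, but in RBR replicate 1 only as part of the broad peak over the gene. The 3 summits of replicate 2 lay within 20 bp. The summits fall in the 430 bp between the 3′ ends of LHCB4.1 and LECRKA4.1 (AT5G01540), which encodes a lectin receptor kinase and runs towards LHCB4.1. The stretch printed here holds 100 bases to each side of the middle summit, and capitals mark the 3 summits, which are in the order E2FB, RBR and E2FA.
LHCB4.1 3′ peak, chr5:210591-210791, plus strand: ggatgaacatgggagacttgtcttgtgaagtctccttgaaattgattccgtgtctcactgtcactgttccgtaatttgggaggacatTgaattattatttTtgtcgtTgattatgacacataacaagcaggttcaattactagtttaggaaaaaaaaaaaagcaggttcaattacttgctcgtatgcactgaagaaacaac

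At the TSS of LHCB4.1 the peaks were of a strength closer to that at the other LHCB genes. The percentiles in replicate 2 were 46.8 in E2FA, 46.5 in E2FB and 53.9 in RBR, with summits 13 bp after the TSS in E2FA, 68 bp before it in E2FB and 26 bp before it in RBR. E2FA, E2FB and E2FC of replicate 1 had no peak within 1000 bp of the TSS. Because the RBR replicate 2 peak at the 3′ end reached back to 974 bp after the TSS, it was taken as the highest peak of LHCB4.1 in that list, and the value of 98.1 there is not one of the promoter. The promoter is shown with its G-box (CACGTG) in capitals, whose last base lies 69 bp before the TSS, next to the E2FB summit.
LHCB4.1, chr5:208616-208865, plus strand: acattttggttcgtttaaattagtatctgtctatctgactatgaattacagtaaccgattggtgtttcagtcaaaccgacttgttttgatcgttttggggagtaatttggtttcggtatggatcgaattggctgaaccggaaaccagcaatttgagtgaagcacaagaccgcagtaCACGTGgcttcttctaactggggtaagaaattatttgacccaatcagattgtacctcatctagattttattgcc

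**Figure D3:**
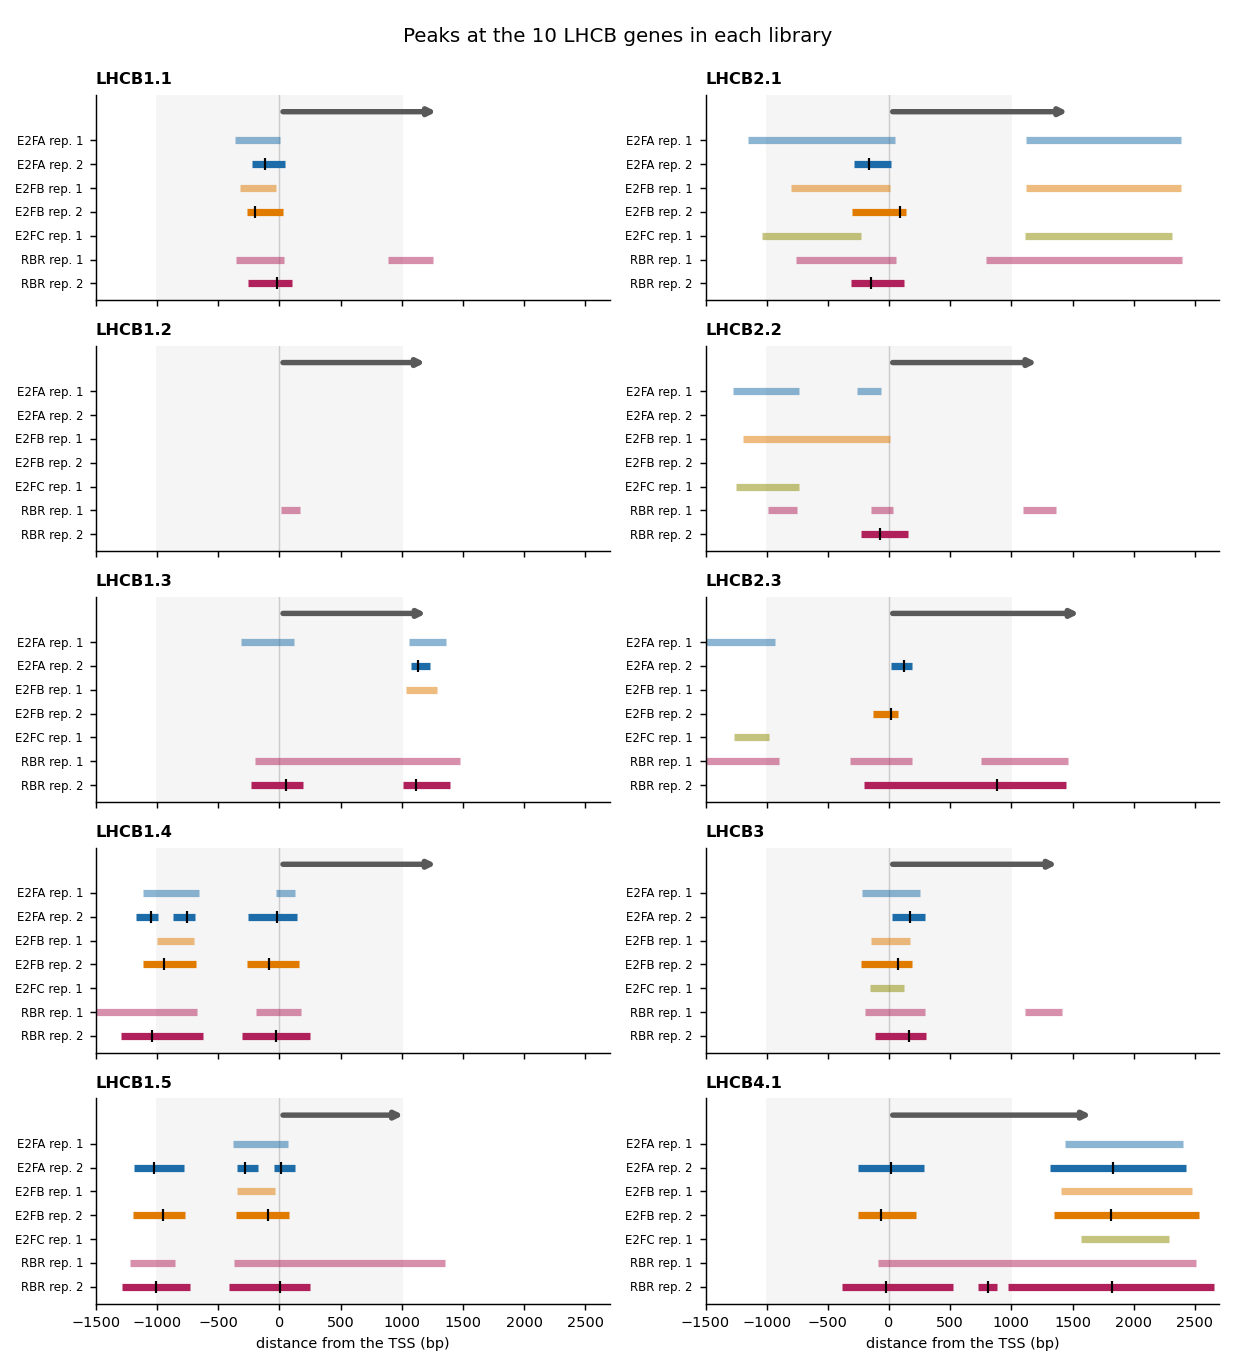
Peaks at the 10 LHCB genes by distance from the TSS (bp), 1 row per library, with replicate 1 in pale and replicate 2 in full colour, black ticks at replicate 2 summits, an arrow for the gene and grey for 1000 bp to each side of the TSS. Peaks are cut at the ends of the axis. LHCB1.2 is nearly empty, and all 7 libraries have a peak that reaches past the end of LHCB4.1.

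A peak overlapped the gene body at 7 LHCB genes in E2FA replicate 1, against 61% of protein-coding genes, at 5 in E2FB replicate 1 (59.1%), at 3 in E2FC replicate 1 (37.6%) and at 10 in RBR replicate 1 (64.5%). In replicate 2 it did so at 8 for E2FA (60.9%), 7 for E2FB (67.1%) and 9 for RBR (71.4%). When only the body from 300 bp after the TSS onwards was counted, the replicate 2 lists had a peak at 2 LHCB genes in E2FA, against 36.5% of protein-coding genes, at 1 in E2FB (41.7%) and at 4 in RBR (49.7%). In replicate 1, with its broad peaks, the count was 3 in the E2FA list (35.8%), 3 in the E2FB list (32.4%), 2 in the E2FC list (19.3%) and 8 in the RBR list (39.5%). The RBR list had the highest share in each replicate both among LHCB genes and among all protein-coding genes.

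RBR and the E2Fs were also ranked against each other at the same gene, by the percentile of the peak nearest the TSS in each list. In replicate 2 RBR had the higher percentile at 7 of the 7 LHCB genes with peaks of both RBR and E2FA, against 66.5% of protein-coding genes, and at 7 of 7 with both RBR and E2FB, against 58.1%. In replicate 1 RBR was higher at 5 of 8 against E2FA (54.4%), at 5 of 6 against E2FB (50.4%) and at 1 of 4 against E2FC (57.1%). Among LHCB genes with both peaks, RBR was thus above E2FB at nearly all in both replicates, and above E2FA at all only in replicate 2. The 2 peaks compared were not always at the same place. At LHCB1.4 in replicate 1 the E2FB midpoint lay 848 bp before the TSS, in a peak shared with LHCB1.5, and the RBR midpoint 5 bp before it.

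The replicate 2 summits of the highest peaks lay at a median of 17 bp before the TSS for E2FA, 68 bp before it for E2FB and 21 bp before it for RBR, against 53, 58 and 53 bp before it over all protein-coding genes. At the 7 LHCB genes with all 3 proteins, the summits nearest the TSS spanned between 68 bp at LHCB1.4 and 866 bp at LHCB2.3, with a median of 106 bp, against 96 bp over 17712 genes. In replicate 1 the median distance of the highest peak from the TSS, in either direction, was 367.5 bp at LHCB genes in the E2FA list, against 387 bp over all protein-coding genes with a peak, and 293.5 bp in the E2FB list, against 279 bp. It was 813 bp over 4 LHCB genes in the E2FC list, against 375 bp, and 424.5 bp in the RBR list, against 264 bp. For the peak nearest the TSS, the median was still 813 bp in the E2FC list, against 323 bp. In the RBR list it was 126 bp, against 214 bp. E2FC midpoints thus lay farther from the TSS at LHCB genes by both measures, and RBR midpoints only by the highest peak.

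Letters known to be bound by regulators were searched for on both strands from 250 bp before to 50 bp after the TSS. The E2F consensus, TTNNCGNN with C or G at each N, was found in 0 of 10 LHCB promoters, against 3.55% of 27443 promoters, so that its absence is usual. It was also absent within 100 bp of the replicate 2 summits of the peaks at LHCB genes, 0 of 10 for E2FA, 0 of 8 for E2FB and 0 of 12 for RBR. Over the 1000 strongest peaks of each list it was present in 52.8% for E2FA, 48% for E2FB and 12.7% for RBR, and over whole lists in 6.93%, 5.76% and 3.66%. The peaks that reached past the 3′ end of LHCB4.1 held 0 matches in each of the 7 libraries.

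Other letters tied to light and the clock in plants occurred in a few members. The CCA1 site, AAAAATCT, named for a clock protein that binds an LHCB1 promoter, was found at LHCB1.1, LHCB1.3 and LHCB1.4, against 7.88% of all promoters. The G-box was found at LHCB2.3 and LHCB4.1 (7.68%) and the I-box, GATAAG, at LHCB2.1 and LHCB4.1 (14.6%). The TATA box, TATAAA, was found at LHCB1.5, LHCB2.3 and LHCB3 (52.1%), and AACGG, the core of the MSA element of mitotic genes, at LHCB1.1 and LHCB2.3 (24.7%). Some matches lay after the TSS. The CCA1 site of LHCB1.3 began 13 bp after it and the I-box of LHCB4.1 40 bp after it. At LHCB2.3 the TATA box began 15 bp and AACGG 19 bp after the annotated start, which is its start codon. LHCB1.4 had a CCA1 site on each side of its TSS. No motif was shared by more than 3 of the 10 windows, and a match in these windows is a description of the letters only.

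Other genes of photosynthesis were compared as fixed lists. Among 11 further light-harvesting genes, of LHCB4.2 to LHCB7 and LHCA1 to LHCA6, RBR covered the TSS of 11 in replicate 1 and 10 in replicate 2. The shares of all protein-coding genes were 54.5% and 63.1%. E2FA covered 11 and 10, against 49.5% and 50.1%, and E2FB 8 and 10, against 48.8% and 58.1%. E2FC, in replicate 1, covered 4 of these genes, against 26%. Their replicate 2 peaks had a median percentile of 57.5 (E2FA), 67.3 (E2FB) and 69.7 (RBR), each above that of the 10 LHCB genes. LHCB6, the minor antenna protein CP24, was the highest by mean, with percentiles between 81.9 and 97.2 in the 7 libraries. LHCB5, the minor antenna protein CP26, was the lowest, with a peak in 5 libraries and a highest percentile of 34.3. Genes of closely related proteins thus ranged over nearly the whole list.

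Of 25 genes for nuclear photosystem subunits and the small subunit of Rubisco, RBR covered the TSS of 25 in both replicates. The share of all protein-coding genes was 54.5% in replicate 1 and 63.1% in replicate 2. E2FA covered 22 in each replicate, against 49.5% and 50.1% of protein-coding genes. E2FB covered 20 and 24 in replicates 1 and 2, against 48.8% and 58.1%, and E2FC 7, against 26%. Median percentiles in replicate 2 were 64.4 for E2FA, 69.6 for E2FB and 67.5 for RBR. PSAE2, a photosystem I subunit, was the highest, between 85.1 and 99.6, and RBCS1B, a Rubisco small subunit, the lowest, between 6.84 and 33.1 in the 5 libraries where it had a peak. Coverage of the TSS by RBR was thus not particular to the 10 LHCB genes.

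MCM2 to MCM7, the subunits of the replicative DNA helicase and well-known E2F targets, mark the other end of the scale. All 6 had the TSS covered in each of the 7 libraries, against between 26% and 63.1% of protein-coding genes by library. Their median percentiles lay between 94.6 and 99.9. MCM2 was the highest by mean and MCM4 the lowest, with percentiles for MCM4 between 84.0 and 99.8. Within 1000 bp of the TSS, the highest LHCB value in E2FA replicate 2 was 46.8, against a lowest MCM value of 99.8. In E2FB replicate 2 it was 46.5, against 99.7. The gap was smaller in replicate 1, at 83.5 against 96.2 for E2FA and 65.6 against 99.1 for E2FB. For E2FC it was 87.2 against 98.7 and for RBR 78.7 against 84.0. In RBR replicate 2 the ranges overlapped, with 98.1 against 93.8, where 98.1 belongs to the 3′ peak of LHCB4.1. The 3′ peaks of LHCB4.1, outside this window, had percentiles of 87.3 in E2FA and 93.4 in E2FB replicate 2.

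**Figure D4:**
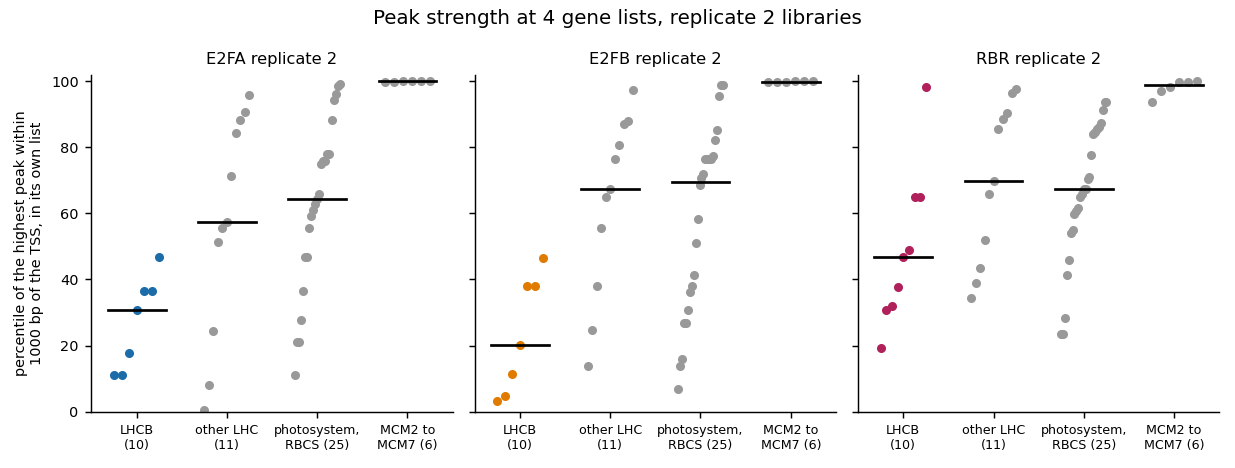
Percentile of the highest peak within 1000 bp of the TSS in the 3 replicate 2 lists, for the LHCB genes (coloured), 11 other light-harvesting genes, 25 photosystem and Rubisco genes and MCM2 to MCM7 (grey), with medians as lines. Genes without a peak are not drawn and numbers in brackets are list sizes. LHCB points lie in the lower part of the E2FA and E2FB lists, and MCM points at the top.

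Among the 11189 protein-coding genes with a peak in all 7 libraries, those with percentiles closest to the mean of LHCB2.1 and LHCB3 were AT1G05240, AT1G78210, SKS6 (AT1G41830), AT3G47800 and AT4G33140. Their Euclidean distances over the 7 percentiles were 15.5, 15.8, 19.6, 21.8 and 23.9. The mean of only 2 LHCB genes entered this comparison, since the other 8 lacked a peak in some library.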

How the data were processed

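ChIP-seq peak lists from 7 libraries were analysed. According to the submitters' notes and the methods, the authors trimmed reads with Trimmomatic 0.38, mapped them to TAIR10 with Bowtie2 2.3.5, filtered them on mapping quality with SAMtools 1.9 and called peaks in each library with MACS2 2.2.7.1. No control library is named, and the peak names of replicate 2 point to MACS3. The deposited fold enrichment of a peak is the ratio of its signal to nearby background within 1 library, and the authors' p and q are deposited as −log10 values. The depth of each list's library was not used. The deposited score column was not used.

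The TSS of a gene was its start in RefSeq's TAIR10.1 annotation, and no peak ran past the reference chromosome ends. Organelle peaks were left out. Positions refer to summits in replicate 2 and midpoints in replicate 1. Computations used Python 3.11.15, numpy 2.4.6, pandas 2.3.3, Biopython 1.88 (coding and promoter alignments) and matplotlib 3.10.9. In simulated data, 100 of 100 peaks planted within 1000 bp of a TSS were recovered, and 0 of 100 planted outside.

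The genes and lists were chosen with earlier results of these data known. All 10 LHCB genes were named, with the highest and lowest member of each list by mean percentile and the 5 genes nearest in percentile. Alternatives, 26 in number, varied the window, threshold, ranking and start site. Expression and signal tracks were not analysed here.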

Additional observations from a re-analysis of the deposited data

How the results depend on the processing

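Of 169 recomputed values over 34 results, 136 stayed within 1.5 times the count or within the replicate spread and 33 did not. The spread came from the difference between the 2 replicates of a protein, which also holds the difference in peak format. For E2FC, with 1 library, the mean spread of the other proteins was used. These limits were wide. In E2FA replicate 1 a median percentile of 66.6 counted as unchanged at 43.6 by width times fold enrichment and at 50.5 by the nearest peak. Keeping only the top 50% of each list lowered the LHCB genes with a TSS peak to 3 in E2FB replicate 1, 0 in E2FA replicate 2, 0 in E2FB replicate 2 and 3 in RBR replicate 2. The shares of all protein-coding genes were 44.5%, 42.3%, 48.1% and 51.1%, in the same order. For E2FC, windows of 500 and 200 bp left 2 and 1. A fold enrichment over 2 in place of 3 gave 4 LHCB genes in E2FA replicate 1, 1 in E2FC replicate 1, 1 in RBR replicate 1, 5 in E2FA replicate 2, 5 in E2FB replicate 2 and 9 in RBR replicate 2. Over 4, or in the top 10% of the list, RBR replicate 2 kept 1, which was LHCB4.1 through its 3′ peak. Requiring an overlap of at least 50% of the gene body left 0 in E2FA, E2FB and E2FC replicate 1, 3 in RBR replicate 1, 0 in E2FA and E2FB replicate 2 and 1 in RBR replicate 2. Starting the gene body 300 bp after the TSS left 3, 3, 2, 1 and 4 in E2FA replicate 1, E2FB replicate 1, E2FA replicate 2, E2FB replicate 2 and RBR replicate 2. The shares of all protein-coding genes were 35.8%, 32.4%, 36.5%, 41.7% and 49.7%, in this order. A q-value under 0.01 left 3 in E2FB replicate 1. For the other windows, the fold limits of 2 and 4, the top 10%, the 50% overlap and the q-value, shares of all protein-coding genes were not computed. Those counts therefore cannot be read as high or low. The median peak of the RBR replicate 2 list had a fold enrichment of 3.06. Ranking by width times fold enrichment moved the median percentile to 27.2 in E2FB replicate 1, 45.6 in E2FC and 87.0 in RBR replicate 1. Setting genes without a peak to percentile 0 moved it to 20.3 in E2FB replicate 1 and 0 in E2FC. Measured from the start codon, RBR replicate 2 summits had a median of -130 bp. The causes of these shifts were not tested beyond what each setting changes. Counted over the libraries of a protein together, both E2FA lists had a TSS peak at 6 LHCB genes (58.6% of protein-coding genes), both E2FB lists at 5 (63.9%) and both RBR lists at 9 (69.4%), and with 1 replicate left out the counts were between 7 and 8, 6 and 7, and 9 and 10. No paired test was made, since no test was run on these values. Without a library from plants lacking GFP, peaks from unspecific precipitation cannot be told apart from peaks of the tagged proteins, and their part in the RBR counts was not tested. The depth of each list limits weak peaks, so a gene without a peak is not shown to be unbound.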
